A study of Mus musculus with 9 samples.

Results

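The genes described here are 7 of the 56748 in the count table, taken by symbol: the adrenergic receptors Adrb1, Adrb3, Adra2a and Adra1a, the stimulatory G protein gene Gnas, and the protein kinase A (PKA) subunits Prkar2b and Prkaca. All 7 passed the filter on low counts. RNA of whole epididymal adipose tissue, the visceral fat pad beside the mouse epididymis, was sequenced in 9 libraries of WT male C57BL/6J mice that started a high-fat diet (HFD) at 8 weeks of age. The 3 Pre libraries came after 8 weeks of HFD, the 3 WL1 libraries after 1 further week on standard diet (SD) and the 3 WL2 libraries after 2 weeks on SD. No group that stayed on HFD for the extra weeks was analysed here, so the change of diet and the passing of time cannot be told apart.

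Noradrenaline released from sympathetic nerves reaches adipocytes through receptors of opposing kinds. The beta receptors couple to the stimulatory G protein Gs, whose alpha subunit is encoded by Gnas, and activate adenylyl cyclase to make cyclic AMP (cAMP). The alpha-2 receptors couple to Gi and lower cAMP, and the alpha-1 receptors couple to Gq and raise calcium. Binding of cAMP to the regulatory subunits of PKA frees the catalytic subunits, which phosphorylate perilipin and hormone-sensitive lipase and so start the breakdown of stored triglyceride. In rodent fat the beta-3 receptor is the characteristic adipocyte form, and RII-beta, the product of Prkar2b, is the main regulatory subunit of white fat.

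The libraries held 16434450 to 22729072 counts. Summed over 12 adipocyte markers, the level was 42147 to 65889 CPM (reads scaled to library size) at Pre, 32739 to 39419 at WL1 and 44885 to 46378 at WL2. The 12 macrophage markers summed to 1876 to 3490 CPM at Pre, 3515 to 6696 at WL1 and 2076 to 3798 at WL2, with the highest sum in WL1 replicate 3. No marker in these 2 lists was at 0 in all libraries. The 6 lymphocyte markers summed to 160 CPM in Pre replicate 2 and to 4.13 to 14.1 CPM in the other libraries, and the 5 epididymis markers to at most 0.453 CPM. The 6 mesothelium markers summed to 37.3 to 366 CPM at Pre, 44.3 to 219 at WL1 and 233 to 658 at WL2. The 5 hepatocyte markers summed to 9.44 to 85.1 CPM at Pre, 3.21 to 71.6 at WL1 and 4.49 to 6.72 at WL2. The 5 skeletal muscle markers, of which Myh4 was at 0 in all libraries, summed to 29.8 to 45.6 CPM at Pre. They summed to 6.61 to 13.2 CPM at WL1 and 8.05 to 23.2 at WL2, so every Pre library lay above every SD library. The levels of these markers thus differed between libraries, and their part in the results of the 7 genes was not tested. In tissue RNA, fewer cells of a type and less RNA per cell cannot be told apart. The labels do not state that each library came from a separate mouse, so the p-values measure the spread between these samples.

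At 2 weeks of SD the Adrb3 transcript was 1.96-fold higher than at Pre, Adra1a, Prkar2b and Prkaca were lower, and Gnas lay between 30.4 and 38 CPM in all libraries. Levels below are CPM with TMM factors, a scaling to the bulk of genes. Adjusted p-values (Benjamini-Hochberg, 18510 genes, called under 0.05) come from the quasi-likelihood test of edgeR. WL1 and WL2 were compared with the same Pre libraries. Past the threshold, WL1 against Pre held 0 of the 7 genes higher and 1 lower, where 2.6% of all genes tested were higher and 4.69% lower. WL2 against Pre held 1 higher and 3 lower, where the shares over all genes were 3.35% and 6.66%. WL2 against WL1 held 1 higher and 0 lower, against 1.31% and 2.37% over all genes. At an unadjusted p under 0.05 there were 4, 5 and 3 of the 7 genes in the 3 comparisons, where 24.3%, 26% and 21.4% of all genes tested passed that limit. DESeq2 called 0 higher and 3 lower at WL1, with 5.1% of all genes higher and 7.56% lower, and 1 higher and 3 lower at WL2, with 5.54% and 9.14%. Between WL2 and WL1 it called 1 higher and 1 lower, with 3.99% and 6.47% over all genes. The median log2 fold change of the 7 genes was -0.28 at WL1 and -0.34 at WL2 against Pre, and 0.08 for WL2 against WL1. Over all genes tested the same medians were 0.02, 0.01 and 0.00.

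**Figure D1:**
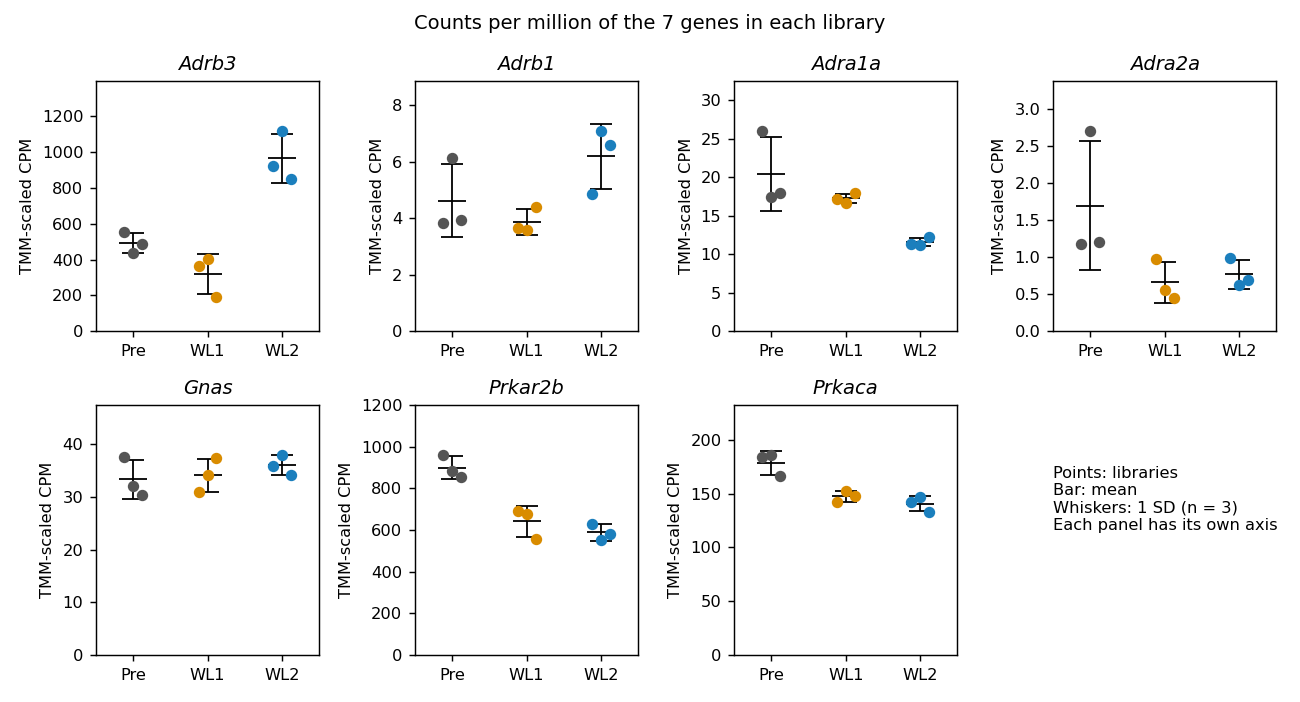
TMM-scaled CPM of each of the 7 genes (y axis, linear, 1 scale per panel) in the 3 libraries of each phase (x axis), with points for libraries, bars for means and whiskers for 1 SD (n = 3). The 3 WL2 libraries of Adrb3 lie between 852 and 1117 CPM, above all others, and those of Adra1a between 11.2 and 12.2 CPM, below all others.

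Adrb3 encodes the beta-3 adrenergic receptor and lies on chromosome 8 from 27715804 to 27740644 on the minus strand in the authors' table. Its level was 553, 437 and 487 CPM in the Pre libraries, 366, 401 and 193 CPM in the WL1 libraries and 923, 1117 and 852 CPM in the WL2 libraries. Every WL2 library was above every Pre and WL1 library, and every WL1 library was below every Pre library. Adrb3 rose 1.96-fold from Pre to WL2 (log2 fold change 0.97, SE 0.24, 95% interval 0.44 to 1.50, adjusted p = 0.0301) and was 3.01-fold higher at WL2 than at WL1 (log2 1.59, SE 0.24, adjusted p = 0.0111). The WL1 mean of 320 ± 112 CPM (SD, n = 3) against 493 ± 58.2 CPM at Pre gave -0.62 on the log2 scale (SE 0.24, adjusted p = 0.142), which was -0.37 without WL1 replicate 3, the library with the lowest Adrb3 level and the highest macrophage sum. With the adipocyte markers as the scale, whose sums were lowest at WL1, it was -0.10 (adjusted p = 0.747). A link between Adrb3 and the macrophage sum was not tested.

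The call at WL2 against Pre was lost when any 1 Pre or WL2 library was left out, with log2 values of 0.85 to 1.06 and adjusted p up to 0.116 over the 9 such fits. That against WL1 was lost without WL2 replicate 2 (log2 1.47). Both calls held in all 12 other alternatives, including 1 that scaled each library by its adipocyte markers (log2 1.18 against Pre and 1.28 against WL1). The antisense gene Gm45470, a long noncoding RNA on the plus strand, covers 46.9% of the Adrb3 span and held reads equal to 4.63% to 7.77% of the Adrb3 reads in each library. Since the sources used here do not state whether counting used strand, reads from these genes cannot be told apart, and with their counts summed the log2 fold changes were -0.63, 0.96 and 1.59 for WL1 and WL2 against Pre and WL2 against WL1.

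Adrb1, on chromosome 19 from 56710631 to 56721545, encodes the beta-1 receptor, which also couples to Gs. Its level was 3.83, 6.12 and 3.92 CPM at Pre, 3.64, 3.58 and 4.39 CPM at WL1 and 4.87, 7.08 and 6.6 CPM at WL2. All WL2 libraries lay above all WL1 libraries, and both groups overlapped Pre. The log2 fold changes were -0.26 (SE 0.25, adjusted p = 0.56) for WL1 and 0.42 (SE 0.24, adjusted p = 0.304) for WL2 against Pre, and 0.68 (SE 0.24, 95% interval 0.14 to 1.22, adjusted p = 0.142) for WL2 against WL1. Each phase held 223 to 328 Adrb1 reads over its 3 libraries. Pre replicate 2, the library with the high lymphocyte sum, had the highest Pre level. Without it the log2 fold changes against Pre were -0.01 for WL1 and 0.67 for WL2 (adjusted p = 0.102). A link between Adrb1 and the lymphocyte sum was not tested.

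Adra1a, the alpha-1A receptor, lies on chromosome 14 from 66872700 to 67008617. It measured 26, 17.4 and 17.9 CPM at Pre, 17.2, 16.7 and 17.9 CPM at WL1, and 11.3, 11.2 and 12.2 CPM at WL2. The WL2 libraries were all below the other 6 and close to each other, while Pre replicate 1 stood above the rest. Adra1a fell by 0.82 on the log2 scale from Pre to WL2 (SE 0.16, adjusted p = 0.0112), to 0.568 of its Pre level. At WL1 the log2 fold change was -0.24 (SE 0.16, adjusted p = 0.383), which was -0.03 (adjusted p = 0.91) without Pre replicate 1, and between WL2 and WL1 it was -0.58 (SE 0.16, adjusted p = 0.0752). The call at WL2 was lost without WL2 replicate 2 (log2 -0.79, adjusted p = 0.0559) and with the adipocyte markers as the scale (log2 -0.59, adjusted p = 0.0786). The 7 markers of smooth muscle, which also carries alpha-1 receptors, and pericytes summed to 818 to 1034 CPM at Pre, 564 to 768 CPM at WL1 and 523 to 749 CPM at WL2. Of these 7 markers 1, the smooth muscle actin gene Acta2 (named after its values were seen), was called lower in each SD phase against Pre in edgeR's test. Over all genes tested 4.69% were lower at WL1 and 6.66% at WL2. DESeq2 called 2 markers lower at WL1 and 1 at WL2, beside 7.56% and 9.14% over all genes. The median log2 fold change of the 7 markers was -0.33 at WL1 and -0.35 at WL2, with 2 and 1 of them positive. Between WL2 and WL1 edgeR and DESeq2 each called 0 of them, with 0 at an unadjusted p under 0.05 in edgeR. Over all genes tested edgeR called 1.31% higher and 2.37% lower there, DESeq2 3.99% and 6.47%, and 21.4% had an unadjusted p under 0.05 in edgeR. Their part in the Adra1a result was not tested.

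Adra2a encodes the alpha-2A receptor, the Gi-coupled brake on lipolysis, and lies on chromosome 19 from 54032582 to 54037413. It was the faintest of the 7 genes, with 20, 49 and 26 reads at Pre, 18, 12 and 8 reads at WL1 and 18, 11 and 12 reads at WL2. Scaled, these were 1.18, 2.7 and 1.2 CPM, then 0.977, 0.551 and 0.45 CPM, then 0.986, 0.623 and 0.695 CPM. All 6 libraries on SD were below all 3 Pre libraries, with the top value in Pre replicate 2. The log2 fold changes against Pre were -1.35 (SE 0.48, adjusted p = 0.118) at WL1 and -1.13 (SE 0.47, adjusted p = 0.163) at WL2, and they were -0.85 and -0.63 without Pre replicate 2, where the lymphocyte sum was high. A link between Adra2a and that sum was not tested. At this depth the 95% interval at WL2 ran from -2.18 to -0.08.

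Read per length, as FPKM deposited by the authors, Adrb3 exceeded Adrb1 in every library, at 154, 122 and 135 against 1.06, 1.7 and 1.09 FPKM at Pre, and at 251, 313 and 239 against 1.32, 1.98 and 1.85 FPKM at WL2. The lowest Adrb3 value, 52.9 FPKM in WL1 replicate 3, stood beside 1.2 FPKM for Adrb1. The ratio of Adrb3 to Adra2a FPKM was 671.5, 231.9 and 580.7 at Pre, 536.7, 1042 and 612.6 at WL1, and 1341, 2565 and 1756 at WL2. The WL2 ratios were above all others (exact two-sided permutation p = 0.1 against each phase, the smallest that 3 libraries against 3 can give, and 0.15 after adjustment over 9 such tests), and they rest on the 8 to 49 Adra2a reads per library.

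Gnas lies on chromosome 2 from 174126113 to 174188537. It measured 37.5, 32.1 and 30.4 CPM at Pre, 31, 34.1 and 37.3 CPM at WL1 and 35.9, 38 and 34.2 CPM at WL2, with all phases overlapping. The log2 fold changes were 0.03 (95% interval -0.23 to 0.30, adjusted p = 0.889) at WL1 and 0.11 (95% interval -0.15 to 0.37, adjusted p = 0.581) at WL2 against Pre, and 0.08 (95% interval -0.18 to 0.34) between WL2 and WL1. With the adipocyte markers as the scale, Gnas was higher at WL1 than at Pre (log2 0.58, adjusted p = 0.0379). On that scale the median log2 fold change of all genes was 0.552, and 5542 of 18510 genes were called higher. The Gnas value lay near that median, so nothing particular to Gnas is read from this call. Per length Gnas was low for a G protein gene, at 2.75 FPKM at Pre beside 71.9 FPKM for Gnb1, a beta subunit, and 155 FPKM for Gnai2, an inhibitory alpha subunit. The table places Gm20721 on the opposite strand over 26.3% of the Gnas span and Gnasas1 over 17.8%. These genes held 2 and 14 reads in all 9 libraries against 5770 for Gnas. The sources used here do not state how reads in the shared stretches were counted, so the level of Gnas is uncertain.

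Prkar2b encodes the regulatory subunit RII-beta and lies on chromosome 12 from 32008475 to 32111295 on the minus strand. Prkaca, the catalytic subunit alpha, lies on chromosome 8 from 84699622 to 84723072 on the plus strand. These PKA genes lay below Pre at both times on SD, and among the pairs of the 7 genes they had the highest Pearson correlation of log2 CPM over the 9 libraries (r = 0.87, a description over libraries that share the 3 phases). Their promoters are shown for this reason. Each line gives 300 bases of RefSeq sequence on GRCm38.p6, from 250 bases before a start site to 50 after it, at chr12:32061228-32061527 (minus strand) for Prkar2b and chr8:83972728-83973027 (plus strand) for Prkaca, with capitals marking the E-box CACGTG and, on either strand, the TGACG half-site of the cAMP response element.
Prkar2b: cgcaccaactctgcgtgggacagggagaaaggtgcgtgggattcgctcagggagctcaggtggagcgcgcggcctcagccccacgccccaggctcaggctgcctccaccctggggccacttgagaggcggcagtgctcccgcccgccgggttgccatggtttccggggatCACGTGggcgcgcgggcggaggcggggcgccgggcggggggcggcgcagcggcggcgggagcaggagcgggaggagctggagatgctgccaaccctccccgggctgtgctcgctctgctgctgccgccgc
Prkaca: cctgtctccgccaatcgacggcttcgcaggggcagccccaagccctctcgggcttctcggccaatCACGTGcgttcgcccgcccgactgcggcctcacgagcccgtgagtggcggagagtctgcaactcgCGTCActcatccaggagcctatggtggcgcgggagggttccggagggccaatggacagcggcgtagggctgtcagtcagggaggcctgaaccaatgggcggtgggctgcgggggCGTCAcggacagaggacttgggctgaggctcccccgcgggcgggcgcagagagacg
Each window held 1 E-box, starting 80 bases before the start site in Prkar2b and 185 before it in Prkaca. So did the Adra2a window, at 80 bases before the start, where 7.15% of all 32851 promoter windows of this length held 1 or more. The Prkaca window held 2 TGACG half-sites, on the minus strand, and the Prkar2b window none, against 20.8% of all windows with at least 1. The full element TGACGTCA was in none of the 10 windows found for 5 of the 7 genes and in 1.79% of all windows. The GC box GGGCGG occurred 4 times in Prkar2b and 3 times in Prkaca (35.7% of all windows), and the nuclear receptor half-site AGGTCA in neither (16.3% of all windows). A second RefSeq start site of each gene gave the windows chr12:32060540-32060839 (Prkar2b) and chr8:83976633-83976932 (Prkaca), neither of which held any of the 5 motifs. Every motif was searched on both strands, the full element contains the half-site, and a match describes the letters alone.

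Prkar2b measured 961, 884 and 853 CPM in the Pre libraries, 692, 676 and 557 CPM at WL1 and 630, 553 and 581 CPM at WL2. All 6 SD libraries were below all 3 Pre libraries, and WL1 and WL2 overlapped. Prkar2b fell by 0.49 on the log2 scale at WL1 (SE 0.12, adjusted p = 0.0366), to 0.714 of its Pre level, and by 0.61 at WL2 (SE 0.12, adjusted p = 0.01), to 0.654. Between WL2 and WL1 the log2 fold change was -0.13 (SE 0.12, 95% interval -0.39 to 0.14, adjusted p = 0.606). The call at WL1 was kept in 1 of 9 fits that left out a library, with log2 values of -0.55 to -0.40 and adjusted p of 0.0371 to 0.114, and was lost in all but the fit without WL2 replicate 1. It was also lost with library totals alone (log2 -0.39, adjusted p = 0.072), with the compared phases alone (log2 -0.51, adjusted p = 0.0623) and with the replicate block (log2 -0.49, adjusted p = 0.0536). With the adipocyte markers as the scale, whose sum was also lowest at WL1, the log2 fold change at WL1 was 0.04 (adjusted p = 0.879) and at WL2 -0.42 (adjusted p = 0.207). The call at WL2 was otherwise lost only without WL2 replicate 2 (log2 -0.57, adjusted p = 0.0621).

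Prkaca measured 184, 186 and 166 CPM at Pre, 142, 152 and 148 CPM at WL1 and 142, 147 and 133 CPM at WL2. Again all SD libraries were below all Pre libraries. Prkaca fell by 0.34 at WL2 (SE 0.10, adjusted p = 0.0495), to 0.788 of its Pre level, and its log2 fold change was -0.28 at WL1 (SE 0.10, 95% interval -0.49 to -0.06, adjusted p = 0.112) and -0.07 between WL2 and WL1 (adjusted p = 0.765). The call at WL2 lay at the threshold: it was kept in 1 of 9 fits that left out a library, the one without Pre replicate 3, and in 6 of the 12 other alternatives, with log2 values of -0.40 to -0.16 over all of them.

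**Figure D2:**
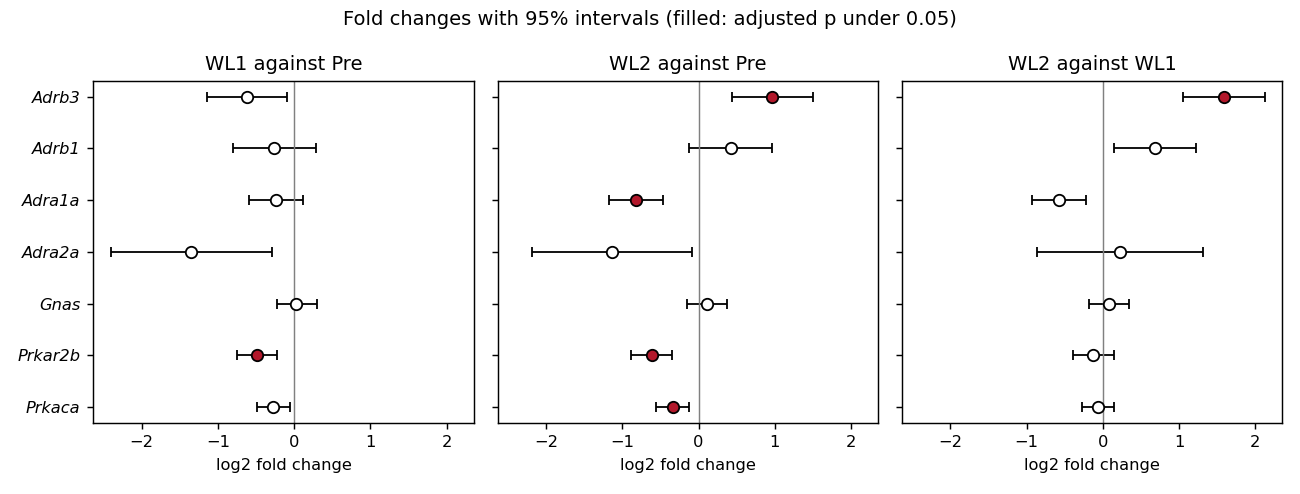
Log2 fold changes of the 7 genes (x axis) for WL1 against Pre, WL2 against Pre and WL2 against WL1, with 95% intervals from edgeR and filled points for adjusted p under 0.05. Adrb3 lies to the right at WL2 in both comparisons (0.97 and 1.59), and Adra1a, Prkar2b and Prkaca lie to the left at WL2 against Pre.

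The other PKA subunits and inhibitors gave 0 calls of 7 genes in edgeR's test in each of the 3 comparisons. Over all genes tested 2.6%, 3.35% and 1.31% were higher and 4.69%, 6.66% and 2.37% lower. At an unadjusted p under 0.05 there were 2, 1 and 1 of these 7 genes, beside 24.3%, 26% and 21.4% of all genes. With so few genes, nothing particular to them is read from these counts. DESeq2 called 1 of them, the inhibitor Pkib, lower at WL2 than at WL1, where 6.47% of all genes were lower. At Pre, Prkar2b stood at 231 ± 14 FPKM beside 77.9 ± 9.4 FPKM for Prkar1a, 10.2 ± 1.63 FPKM for Prkar2a and 1.57 ± 0.224 FPKM for Prkar1b (SD, n = 3). Prkar1a, the RI-alpha subunit found in most tissues, had log2 fold changes of -0.01 at WL1 (95% interval -0.25 to 0.23) and -0.01 at WL2 (95% interval -0.25 to 0.23) against Pre. Within a library, which sets scaling aside, Prkar2b made up 75.51%, 69.28% and 71.34% of the FPKM of the 4 regulatory subunits at Pre, 65.93%, 66.56% and 62.16% at WL1, and 64.69%, 61.84% and 62.81% at WL2. No SD library reached the lowest Pre library. Such a share sets aside scaling but not the mix of cells in the tissue, whose part in it was not tested. The mean share went from 72.04% ± 3.18 at Pre to 64.88% ± 2.38 (WL1) and 63.11% ± 1.45 (WL2; SD, n = 3; exact permutation p = 0.1 for each SD phase against Pre, the smallest possible, and 0.15 after adjustment over 9 tests).

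Prkaca made up 91.25%, 89.49% and 89.3% of the summed Prkaca and Prkacb FPKM at Pre, 85.52%, 87.36% and 85.25% at WL1, and 87.04%, 85.96% and 85.89% at WL2. The SD phases were again below Pre without overlap (exact permutation p = 0.1 for each, 0.15 after adjustment), and WL2 and WL1 overlapped (exact permutation p = 0.6). The part of the mix of cells in the Prkaca share was likewise not tested. Prkacb, the catalytic subunit beta, had log2 fold changes of 0.27 (SE 0.11, adjusted p = 0.178) at WL1 and 0.17 (SE 0.11, adjusted p = 0.358) at WL2 against Pre.

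**Figure D3:**
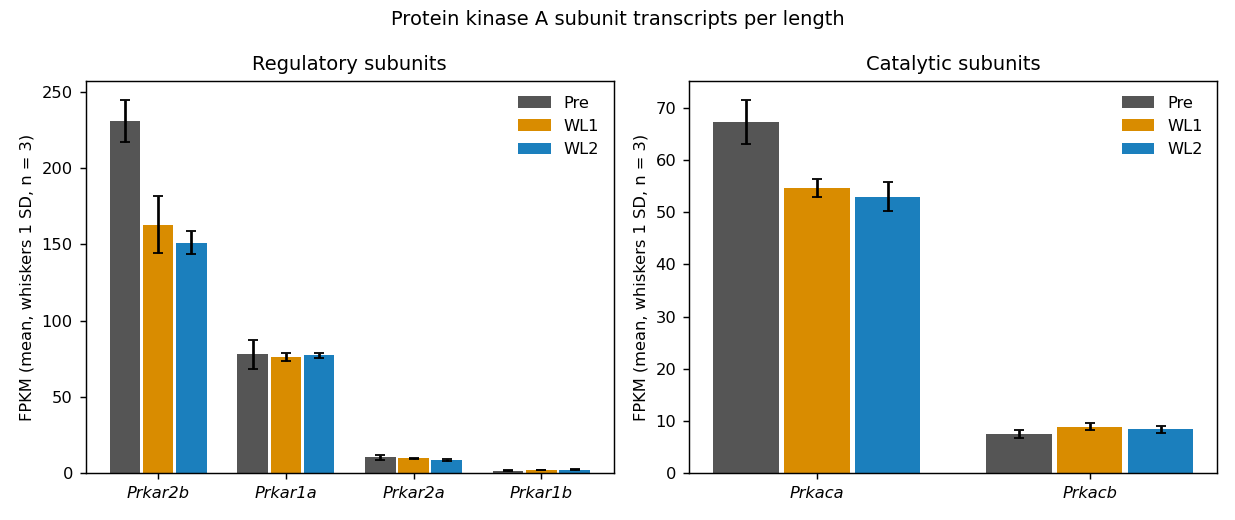
Mean FPKM (y axis, linear from 0, whiskers 1 SD, n = 3) of the PKA regulatory subunits (left) and catalytic subunits (right) at Pre, WL1 and WL2. The Prkar2b bar goes from 231 at Pre to 163 and 151 FPKM, while the Prkar1a bar stays between 76.1 and 77.9 FPKM.

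The order of the 7 genes per length differed between phases. The place of Gnas in it is uncertain, since how reads in the stretches shared with Gm20721 and Gnasas1 were counted is not stated. At Pre, Prkar2b (231 FPKM) was followed by Adrb3 (137 ± 15.9), Prkaca (67.4 ± 4.21), Gnas (2.75 ± 0.298), Adra1a (2.19 ± 0.513), Adrb1 (1.28 ± 0.361) and Adra2a (0.329 ± 0.17), and only Gnas and Adra1a overlapped among neighbours. At WL1 the order was kept, with Adrb3 at 87.7 ± 30.5 FPKM overlapping Prkaca at 54.7 ± 1.7 FPKM and no other neighbours overlapping. At WL2 Adrb3 was first at 268 ± 39.8 FPKM, above Prkar2b at 151 ± 7.56 FPKM, and Adrb1 at 1.72 ± 0.348 FPKM stood above Adra1a at 1.24 ± 0.0668 FPKM.

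Around these genes, 125 further genes of the pathway were listed in 13 groups, of which 124 were in the table and 120 were tested. Past the threshold, 4 were higher and 7 lower at WL1 against Pre, 5 higher and 9 lower at WL2 against Pre, and 3 higher and 3 lower at WL2 against WL1. These are 3.33% and 5.83%, 4.17% and 7.5%, and 2.5% and 2.5% of the 120 genes, beside 2.6% and 4.69%, 3.35% and 6.66%, and 1.31% and 2.37% over all genes tested. These shares lie near each other, and nothing particular to the pathway is read from the counts. The median log2 fold changes over the 120 genes were 0.07, 0.01 and 0.01. Among the 4 further adrenergic receptors tested, edgeR and DESeq2 each called 0 in the 3 comparisons, with 0, 1 and 0 at an unadjusted p under 0.05 in edgeR. The calls at WL2 against WL1 were all lost without WL2 replicate 2, and 16 of the 31 calls were kept with the adipocyte markers as the scale, against 31 with DESeq2. Calls that held in all 9 fits with 1 library left out numbered 9: Adcy3, Dusp1, Maob, Ptger3 and Slc22a3 at WL1 and Adora1, Id1, Pde7a and Ptger3 at WL2, each against Pre. The others were each lost without 1 or more libraries, and 19 of the 31 calls were lost in at least 1 of the 12 other alternatives. Adra1d, an alpha-1 receptor, stood above Adra1a per length at 11.3 ± 1.34 FPKM at Pre and 8.71 ± 2.22 FPKM at WL2 (SD, n = 3).

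Receptors that share the Gi arm with Adra2a gave 3 lower of 7 at WL1 and 2 lower at WL2 against Pre. Over all genes tested 4.69% and 6.66% were lower. The median log2 fold change of the 7 receptors was -0.48 at WL1 and -0.02 at WL2, with 1 and 3 of them positive. DESeq2 called 3 lower at WL1, where 7.56% of all genes were lower. At WL2 it called 1 higher and 3 lower, beside 5.54% and 9.14% over all genes. Ptger3, the EP3 prostaglandin E2 receptor, fell by 1.72 on the log2 scale at WL1 (SE 0.21, adjusted p = 0.00159) and by 1.70 at WL2 (SE 0.21, adjusted p = 0.000877), from 87.8 ± 10.7 CPM to 26.6 ± 3.37 and 27 ± 8.24 CPM. Adora1, the adenosine A1 receptor, fell by 0.57 (adjusted p = 0.0174) and 0.93 (adjusted p = 0.000821). Sucnr1, the succinate receptor, fell by 0.59 at WL1 (adjusted p = 0.0367). With the adipocyte markers as the scale the WL1 calls of Adora1 and Sucnr1 were lost, while both Ptger3 calls and the WL2 call of Adora1 held in all 12 other alternatives. The WL1 call of Adora1 was also lost without Pre replicate 1, WL1 replicate 1 or WL1 replicate 3. That of Sucnr1 was lost with library totals alone, with the replicate block and in 6 of the 9 fits that left out a library. Of 9 tested receptors that share the Gs arm with the beta receptors, Gipr, the receptor of the gut hormone GIP, rose at WL2 (log2 1.03, SE 0.27, adjusted p = 0.0374).

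Among 10 other G protein subunits, Gnai1, an inhibitory alpha subunit, was higher at WL2 than at WL1 (log2 0.65, adjusted p = 0.0333). Of 10 adenylyl cyclases, which make the cAMP that Prkar2b binds, Adcy3 rose at WL1 (log2 0.93, SE 0.16, adjusted p = 0.00794) and Adcy5 fell by 0.47 at WL2 (SE 0.13, adjusted p = 0.0469). The Adcy5 call was kept in 1 of 9 fits without a library and in 8 of 12 other alternatives. Adcy3 overlaps Cenpo on the other strand over 21.8% of its span, with Cenpo reads at 18.6% of its own. Of 16 phosphodiesterases, which break down cyclic nucleotides, Pde7a fell by 0.89 at WL2 against Pre (SE 0.11, adjusted p = 0.000793) and Pde1a rose (log2 0.74, SE 0.17, adjusted p = 0.0224). Pde1b rose at WL1 (log2 0.55, adjusted p = 0.0311) and was lower at WL2 than at WL1 (log2 -0.75, adjusted p = 0.0177). Pde3b, the enzyme through which insulin lowers adipocyte cAMP, had 269 ± 20.4, 226 ± 38.3 and 318 ± 11.8 CPM at Pre, WL1 and WL2 (SD over 3 libraries) and no call in edgeR's test. Pde3b and the subunits and receptors given without a call were named after their values were seen.

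Of 8 receptor kinases, arrestins and RGS proteins, which end receptor signals, Grk3 (log2 -0.59, SE 0.14, adjusted p = 0.0245) and Grk6 (log2 -0.59, SE 0.15, adjusted p = 0.0323) fell at WL2 against Pre. Each call was kept in 8 of 12 other alternatives and was lost with library totals alone and with the adipocyte markers as the scale. That of Grk3 was further lost with both limma fits and in 5 of 9 fits without a library, and that of Grk6 with the compared phases alone, with the replicate block and in 6 of 9 fits without a library. None of 11 A-kinase anchoring proteins, the scaffolds that hold PKA regulatory subunits, was called in edgeR's test in the 3 comparisons. Over all genes tested 2.6%, 3.35% and 1.31% were higher and 4.69%, 6.66% and 2.37% lower. At an unadjusted p under 0.05 there were 1, 2 and 2 of the 11, beside 24.3%, 26% and 21.4% of all genes. With so few scaffold genes, nothing particular to them is read from these counts. DESeq2 called Akap8 higher at WL2 than at Pre (5.54% of all genes) and Akap10 lower at WL2 than at WL1 (6.47% of all genes). Of 13 genes for Epac proteins, CREB and coactivators, Rapgef3, encoding the cAMP sensor Epac1, rose at WL2 (log2 0.67, SE 0.17, adjusted p = 0.0324). The Rapgef3 call was kept in 3 of 9 fits without a library and in 10 of 12 other alternatives.

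Of 11 tested transcripts known to follow cAMP in many cells, Fos (log2 1.50, SE 0.35, adjusted p = 0.0309) and Dusp1 (log2 0.93, SE 0.17, adjusted p = 0.0106) rose at WL1, Id1 rose at WL2 (log2 1.24, SE 0.23, adjusted p = 0.00802), and Dio2 was lower at WL2 on 8 reads against 51 at Pre (log2 -2.49, SE 0.63, adjusted p = 0.0329). Fos and Dusp1 are also general early response genes, Ergic1 on the other strand overlaps 1.13% of the Dusp1 span with reads at 76.2% of those of Dusp1, and Dio2 was named after its values were seen. Ucp1, the uncoupling protein of thermogenic fat, was not tested, with 4, 9 and 5 reads in the phases.

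In the list for noradrenaline supply and removal, Th and Dbh, the synthesis enzymes of sympathetic neurons, had 0 reads in all libraries, and 7 of 9 genes were tested. Slc22a3, a transporter that takes up noradrenaline outside neurons, fell by 0.63 at WL1 (SE 0.11, adjusted p = 0.00963) and 0.53 at WL2 (SE 0.11, adjusted p = 0.0134). Maob, a monoamine oxidase, fell by 1.05 at WL1 (SE 0.14, adjusted p = 0.00236) and was higher at WL2 than at WL1 (log2 0.96, adjusted p = 0.00945), and Maoa fell by 0.64 at WL2 (SE 0.16, adjusted p = 0.0289). Of 7 genes of PKA-controlled lipolysis, Plin1 (log2 -0.52, adjusted p = 0.04) and Abhd5 (log2 -0.40, adjusted p = 0.0416) fell at WL1, and the glycerol channel gene Aqp7 rose at WL2 (log2 0.66, adjusted p = 0.0336). The calls of Plin1 and Abhd5 were kept in 1 and 3 of 9 fits without a library and in 6 and 7 of 12 other alternatives. As for Prkar2b, the lower values at WL1 stood beside the lowest adipocyte marker sums, and with those markers as the scale 6 of the 11 pathway calls at WL1 against Pre were lost, those of Plin1, Abhd5, Maob, Slc22a3, Adora1 and Sucnr1.

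**Figure D4:**
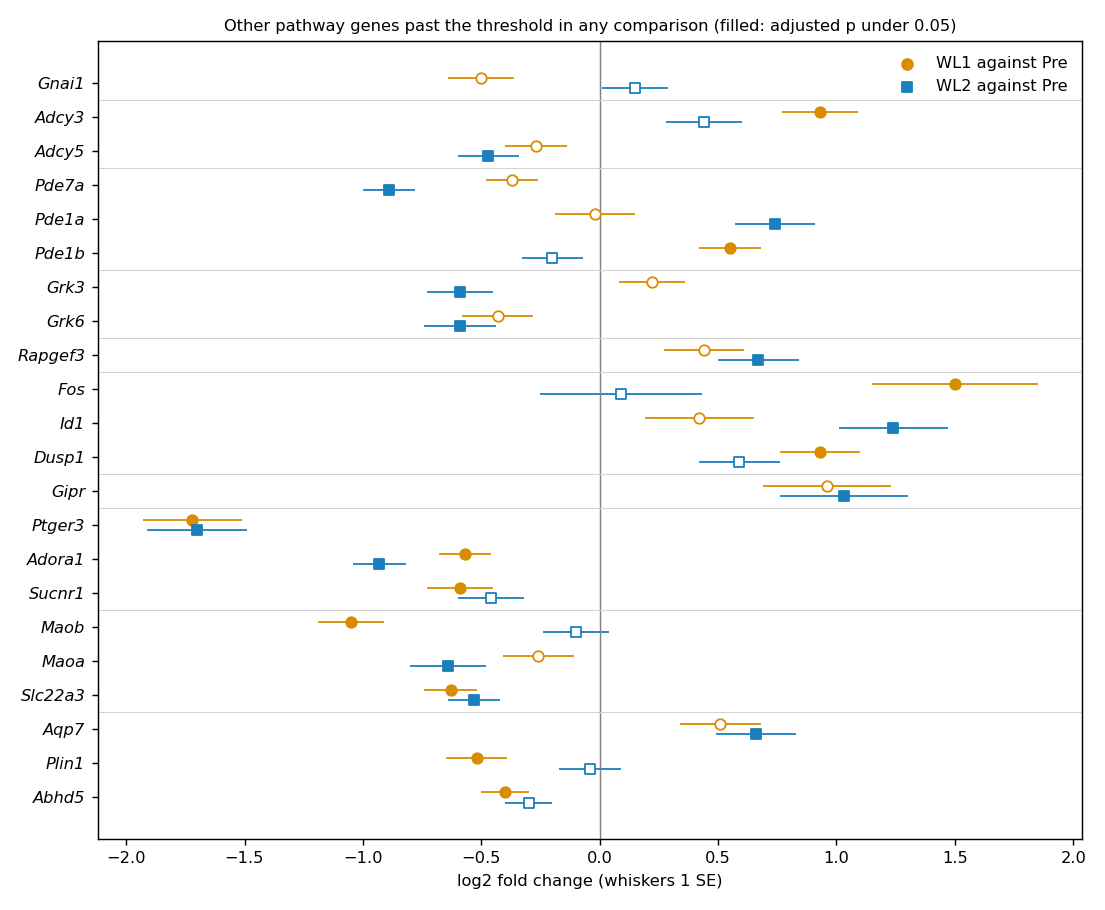
Log2 fold changes (x axis, whiskers 1 SE) of the 22 other pathway genes that the naming rule picked, for WL1 (circles) and WL2 (squares) against Pre, with filled symbols for adjusted p under 0.05 and lines between lists. Ptger3 lies farthest to the left at both times (-1.72 and -1.70), and Fos lies farthest to the right at WL1 (1.50).

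The genes whose log2 CPM followed each of the 7 most closely over the 9 libraries were searched among 13049 protein-coding genes, as a description over libraries that share phases. For Adrb3 they were Ttc8 (r = 0.968) and Ybx3 (r = 0.966), and for Adrb1 Trnp1 (r = 0.969) and Hpgd (r = 0.939). For Adra1a they were Dclk3 (r = 0.981) and Rilp (r = 0.979), and for Adra2a Rhobtb2 (r = 0.974) and Papss1 (r = 0.958). For Prkar2b they were Bcl2l10 (r = 0.985) and Acsl1 (r = 0.982), the second of which is in the adipocyte list, and for Prkaca Kptn (r = 0.981) and Qsox1 (r = 0.977). The closest to Gnas were Egfl8 (r = 0.867) and Tmem81 (r = 0.865).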

How the data were processed

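Total RNA of epididymal adipose tissue from 9 libraries was sequenced by a service provider. The authors deposited whole-number counts per gene and FPKM per gene for 56748 genes. The submitters' processing notes name HISAT2, HISAT, TopHat2 and CASAVA, and the builds GRCm38 and mm10. The counting program and strand setting are not stated there or in the study's methods. Gene positions are those of the authors' table, which differ from GRCm38, so no build is given for them. The authors' FPKM imply library totals of 0.995 to 1.12 times the summed counts.

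Counts of the 18510 genes that reached 0.5 CPM in any library entered 1 quasi-likelihood model of edgeR 4.0.16 (R 4.3.3) over all 9 libraries, with TMM factors and no covariates. Alternatives used DESeq2 1.42.0, limma 3.58.1 on log2(FPKM + 1) and log2(FPKM + 0.1), other scalings, filters and sample sets, the replicate number as a block, and 1 library left out at a time. Summing Adrb3 with Gm45470 was chosen after seeing the data. FPKM ratios were compared by exact two-sided permutation tests. The scripts were tested on simulated data. A pathway gene and the ratio that needs it are not reported here.

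The members and lists were chosen with earlier results of these data known. Named in the text are the 7 genes, up to 4 called genes of each list with the largest change and a mean of at least 1 CPM, and the 2 genes most correlated with each of the 7. Counting depth limits Adra2a most.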

Additional observations from a re-analysis of the deposited data

How the results depend on the processing

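Over 441 alternative fits of the 7 genes' log2 fold changes, 389 kept direction and side of the threshold, 36 lost a call, 7 gained one and 9 changed sign. Only the 1, 4 and 1 calls of the main fit in the 3 comparisons could be lost. The 389 therefore include many values that were never called, and do not measure how stable the calls were. Prkar2b at WL1 lost its call with the adipocyte list as scale but was counted as a sign change. For WL1 against Pre, the main count of 1 called gene became 3 with DESeq2 (Adrb3, Prkar2b and Prkaca lower) and 0 with library totals alone, with the compared phases alone and with the replicate block, and 0 to 1 with 1 library left out. For WL2 against Pre, the count of 4 became 1 with the adipocyte list as scale and 0 to 3 with 1 library left out, with 0 without WL2 replicate 2. It became 3, with Prkaca lost, with no filter, upper quartile factors, library totals alone, the compared phases alone and the replicate block. For WL2 against WL1, the count of 1 became 2 with DESeq2, with the compared phases alone and with the adipocyte list as scale, each time with Adra1a added, and 0 to 2 with 1 library left out. The cause was not tested.

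Sign changes came mainly from the adipocyte list as scale, which moved the median log2 fold change of all genes to 0.552, 0.197 and -0.341 in the 3 comparisons. It turned WL1 against Pre to 0.23 for Adrb1, 0.33 for Adra1a, 0.04 for Prkar2b and 0.25 for Prkaca, and WL2 against WL1 to -0.10 for Adra2a and -0.27 for Gnas. Of the 12 adipocyte markers, 0, 5 and 8 had positive log2 fold changes in the main fit of the 3 comparisons. Calls were 0 higher and 5 lower, 1 and 4, and 4 and 2. Over all genes tested they were 2.6% and 4.69%, 3.35% and 6.66%, and 1.31% and 2.37%. Whether the markers themselves follow the diet was not tested. Gnas at WL1 against Pre was 0.00 with upper quartile factors and -0.04 to 0.13 with 1 library left out. Of the ratios, the Prkaca share at WL2 against WL1 ran from -0.145 to 0.914 percentage points with 1 library left out.

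Counts over all genes moved too. Higher and lower genes numbered 482 and 868 at WL1, 620 and 1233 at WL2, and 242 and 439 for WL2 against WL1. DESeq2 gave 944 and 1400, 1025 and 1692, and 738 and 1197. Library totals alone, which shifted the median to 0.12, 0.158 and 0.0486, turned the split to 1003 and 642 at WL1 and 1495 and 835 at WL2. No filter gave 509 and 1159, the phases alone 418 and 635, and the replicate block 125 and 205 for WL2 against WL1, the block also 223 and 621 at WL1. The adipocyte scale gave 5542 and 222 at WL1, 727 and 408 at WL2 and 39 and 877 between them. Without WL2 replicate 2 the last comparison held 10 and 27.

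Same-numbered libraries of different phases correlated at -0.277 to 0.107 in their deviations and matched best with their own number in 3 of 18 cases, so the numbers were not taken as pairs.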
